A study of Mus musculus with 65 samples.

Results

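A set of 10 genes of fibroblast growth factor (FGF) signalling were followed through the differentiation of mouse embryonic stem (ES) cells into ventral spinal cord progenitors. They were the ligands Fgf8, Fgf15 and Fgf17, the receptors Fgfr1, Fgfr2 and Fgfr3, the feedback inhibitors Spry2, Spry4 and Dusp6, and the transcription factor Etv4, an FGF target. The genes were chosen by name, with earlier results of these data known, so counts of called genes set against all genes tested are descriptions of a chosen list. All 10 were among the 25239 genes of the table and passed the expression filter of the tests, a mean of at least 10 normalised reads over the libraries, which 13964 genes passed. Fgf8 and Fgf17 passed this filter only through the day 3 libraries, where they were high.

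The 65 bulk RNA-seq libraries fell into 25 groups, whose replicates were described as independent differentiations of the HM1 line, a single mouse ES cell line. All cells received 10 ng/ml bFGF up to day 3, first with LGK, an inhibitor of Wnt secretion, and from day 2 with the Wnt agonist CHIR99021, the TGF-beta receptor inhibitor SB-431542 and the BMP receptor inhibitor DMH1. The ES cells had been kept on mouse fibroblast feeders, which were removed by plating, and the feeder genes listed summed to at most 779 normalised reads in any library. The 3 day 3 libraries were of neuromesodermal progenitors (NMPs), the bipotent precursors of spinal cord and trunk mesoderm, at 0 nM of the smoothened agonist SAG. From day 3, bFGF, CHIR99021, SB-431542 and DMH1 were replaced by 100 nM retinoic acid with 0, 10, 100 or 500 nM SAG. SAG activates the Sonic hedgehog (Shh) pathway. Cells taken on days 4, 5 and 6 were fixed in formaldehyde, labelled with antibodies to intracellular transcription factors and sorted into 4 progenitor types, from ventral to dorsal p3, pMN, p2 and p0-1. On each of these days the groups were p0-1 at 0 and 10 nM, p2 at 10 and 100 nM, pMN at 100 and 500 nM and p3 at 100 and 500 nM SAG, and days 4, 5 and 6 held 16, 24 and 22 libraries. The NMPs were not described as sorted by progenitor type, and libraries that failed quality control had been removed by the authors, so that several day 4 groups held 1 or 2 libraries.

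FGFs are secreted ligands that bind receptor tyrosine kinases and activate the Ras-MAPK cascade. Cells under FGF signalling transcribe ETS factors of the Etv4 family and inhibitors of the same pathway, the Sprouty proteins and the ERK phosphatase Dusp6, so these transcripts are widely used as readouts of the pathway. In the caudal embryo FGF signalling maintains axial progenitors and opposes neural differentiation, and retinoic acid opposes FGF signalling there. Fgf15 is a ligand of the developing neural tube, and Fgfr3 marks ventricular zone progenitors of the spinal cord.

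Values are normalised read counts, that is the reads of a library divided by its size factor, and the libraries held 7615114 to 13484815 reads. The number of genes detected was 14070 to 15963 in the NMPs and 9718 to 14433 on day 4. A cut of 11000 detected genes was chosen, and 4 libraries lay below it, with the next library at 11118 genes. They were p3 at 100 nM on day 4 (replicate 3, 9718 genes, the only library of its group), p3 at 100 nM on day 5 (replicate 2), p3 at 100 nM on day 6 (replicate 2) and p2 at 100 nM on day 6 (replicate 3). Results that rest on them are given with and without them. Of the defining markers, T and Nkx2-2 were highest in the libraries labelled for them: T, an NMP gene, ranged from 909 to 3749 in the NMPs, from 0 to 76.2 on day 4 and from 0 to 262 on day 6 and was at 0 on day 5, Nkx2-2 ranged from 121 to 426 in p3, from 0 to 98.1 in pMN and from 0 to 5.5 in p2 and p0-1 together on days 5 and 6, and Olig2, the gene of a protein used in sorting, ranged from 1368 to 6214 in pMN on the same days. Olig2 was not confined to pMN, with 0 to 1741 in p3, 0 to 1452 in p2 and 0 to 103 in p0-1, so the ranges of p3 and p2 overlapped with that of pMN. In p3 on days 5 and 6 the floor plate genes Foxa2, at 232 to 3100, and Shh, at 0.9 to 1335, were also detected in every library.

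The first question was how the FGF genes changed as NMPs became neural progenitors. Between day 3 and day 4 the caudal ligands Fgf8 and Fgf17, the inhibitor Spry4 and the target Etv4 fell, while the receptors Fgfr2 and Fgfr3 rose. A gene was called where limma, fitted across all genes tested, gave a Benjamini-Hochberg adjusted p under 0.01 and a change of more than 2-fold. By this rule 6 of the 10 genes were called, against 3.49% of all genes tested. Of these, 2 were higher on day 4, against 1.32% of all genes, and 4 were lower, against 2.18%. The lower genes included Fgf8 and Fgf17, which passed the expression filter only through the NMP libraries. The filter thus favoured their being called lower, and the count of lower genes is to be read with this limit. Both were also called lower with no filter on low values. The median log2 difference of the 10 genes was -2.62 and that of all genes tested was -0.40. Quantile normalisation moved the latter to -0.01 and called 3 genes higher and 4 lower, and array weights called 3 higher and 6 lower. Summed pluripotency markers were at 822 to 1575 normalised reads in the NMPs and at 1.5 to 154 on day 4, with Pou5f1 at 345 to 1374 and at 0 to 67.6, and their part in these differences was not tested. The withdrawal of bFGF, CHIR99021, SB-431542 and DMH1, the addition of retinoic acid, the sorting and the extra day all fell between these groups. Their shares in the difference cannot be told apart. SAG was added in every day 4 group but p0-1 at 0 nM. The libraries of that group had Fgf8 and Fgf17 at 0, Spry4 at 0 and 82.2, and Etv4 at 230 and 42.9. They had Fgfr2 at 4031 and 5159 and Fgfr3 at 683 and 564. The part of SAG in the differences was not tested.

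**Figure D1:**
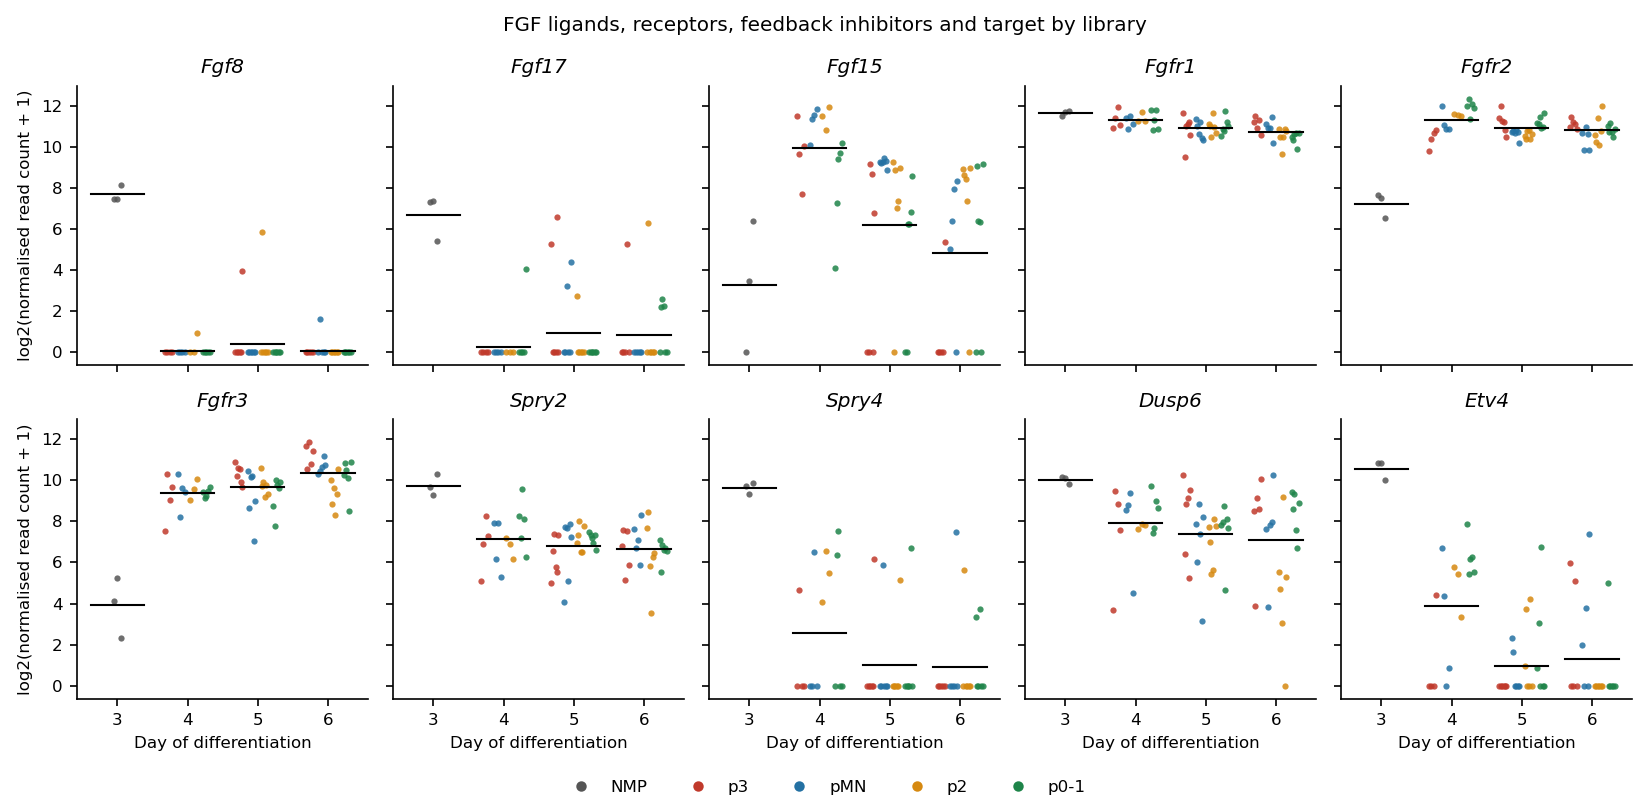
Normalised read count of the 10 genes in each of the 65 libraries, as log2(value + 1), by day of differentiation. Each point is a library coloured by cell type and black lines are the means over the libraries of a day. Fgf8, Fgf17, Spry4 and Etv4 sit high on day 3 and near 0 in most later libraries, and Fgfr2 and Fgfr3 show the opposite order.

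Fgf8 (chr19:45736798-45742884, minus strand, mm10), a ligand of the caudal progenitor zone, had 172, 172 and 285 normalised reads in the 3 NMP libraries. On day 4 it had no read in 15 of 16 libraries and 1 read in the other, p2 at 100 nM. The groups did not overlap, and the NMP mean of 210 ± 65.4 (SD, n = 3) was at least 53.8-fold higher than the level of 3 reads in a day 4 library. The fitted log2 difference was -7.62 (SE 0.70, adjusted p = 4.46e-12 with limma), and DESeq2 did not call it (adjusted p = 0.391). Later, Fgf8 was at 0 in 22 of 24 libraries on day 5 and in 21 of 22 on day 6. The exceptions above 3 reads were p2 at 10 nM on day 5, replicate 2, with 56.0, and p3 at 500 nM on day 5, replicate 3, with 14.6, and the other replicates of both groups were at 0.

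Fgf17 (chr14:70636203-70642268, minus strand), a member of the Fgf8 subfamily, had 160, 161 and 42.1 normalised reads in the NMPs. On day 4 it was detected in 1 of 16 libraries, p0-1 at 10 nM, at 15.6. It fell by 6.53 on the log2 scale (SE 1.16, limma adjusted p = 7e-05), and the call was narrowly lost with edgeR (adjusted p = 0.0101) and DESeq2 (adjusted p = 0.0102). From day 5 on it was detected in 10 of 46 libraries, at 95.4 in the highest, p3 at 500 nM on day 5. No group had it in every replicate.

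Fgf15 (chr7:144896532-144900951, plus strand) behaved differently from the other ligands. It had 0, 10.1 and 81.5 normalised reads in the NMPs and was present in all 16 day 4 libraries, with a lowest value of 16.4, a median of 1131 and a highest value of 3860. Of the day 4 libraries 15 lay above the highest NMP library, and p0-1 at 0 nM, replicate 2, at 16.4, lay within the NMP range. The log2 difference was 6.89 (SE 1.91) and missed the threshold (limma adjusted p = 0.0173). Fgf15 was called with quantile normalisation, with a pseudocount of 10, with array weights and in a fit of the compared groups alone. Per kilobase of exon it had the highest mean of the 10 genes on day 4, at 925 ± 716 (SD, n = 16), where it had been the second lowest in the NMPs, at 16.9 ± 24.6 (SD, n = 3).

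The receptors changed most evenly across libraries. Fgfr2 (chr7:130162451-130266808, minus strand) had 92.4, 181 and 200.1 normalised reads in the NMPs and 885 to 5159 on day 4, with a median of 2751. Fgfr3 (chr5:33721724-33737068, plus strand) had 4.1, 16.5 and 37.1 in the NMPs and 186 to 1279 on day 4, with a median of 695. For both genes all 16 day 4 libraries lay above all 3 NMP libraries. Fgfr2 rose 15.9-fold (log2 difference 3.99, SE 0.27, limma adjusted p = 1.07e-16) and Fgfr3 rose 38.9-fold (log2 difference 5.28, SE 0.50, limma adjusted p = 1.39e-11), both on the log2(value + 1) scale. Each call was kept under all 30 alternative settings, with log2 differences of 3.65 to 4.43 for Fgfr2 and of up to 8.01 for Fgfr3. Fgfr1 (chr8:25518759-25575718, plus strand), the receptor of the early embryo, had 2908, 3335 and 3437 in the NMPs and 1790 to 3870 on day 4, and the groups overlapped (log2 difference -0.39, 95% interval -0.98 to 0.20, limma adjusted p = 0.541). Part of an Fgfr1 exon overlaps the gene Gm16159 on the opposite strand, and no source used here states whether reads were counted by strand.

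Expressed per kilobase of exon, so that genes can be compared, Fgfr1 made up almost all of the summed level of the 3 receptors in the NMPs. Fgfr4, not among the 10 genes, was left out of this sum. Its means were 6.4, 414 and 203 normalised reads on days 3, 4 and 6. Of the summed level of Fgfr1, Fgfr2 and Fgfr3, Fgfr1 made up 94.9% ± 2.2 (SD, n = 3), Fgfr2 4.43% ± 1.8 and Fgfr3 0.623% ± 0.51 on day 3. On day 4 the shares were 44.7% ± 10.7 for Fgfr1, 42.1% ± 11.6 for Fgfr2 and 13.3% ± 5.3 for Fgfr3 (SD, n = 16). By day 6 they were 34.8% ± 8.7, 34.7% ± 10.1 and 30.5% ± 11.2 in the same order (SD, n = 22), and the SDs of the 3 receptors overlapped.

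**Figure D2:**
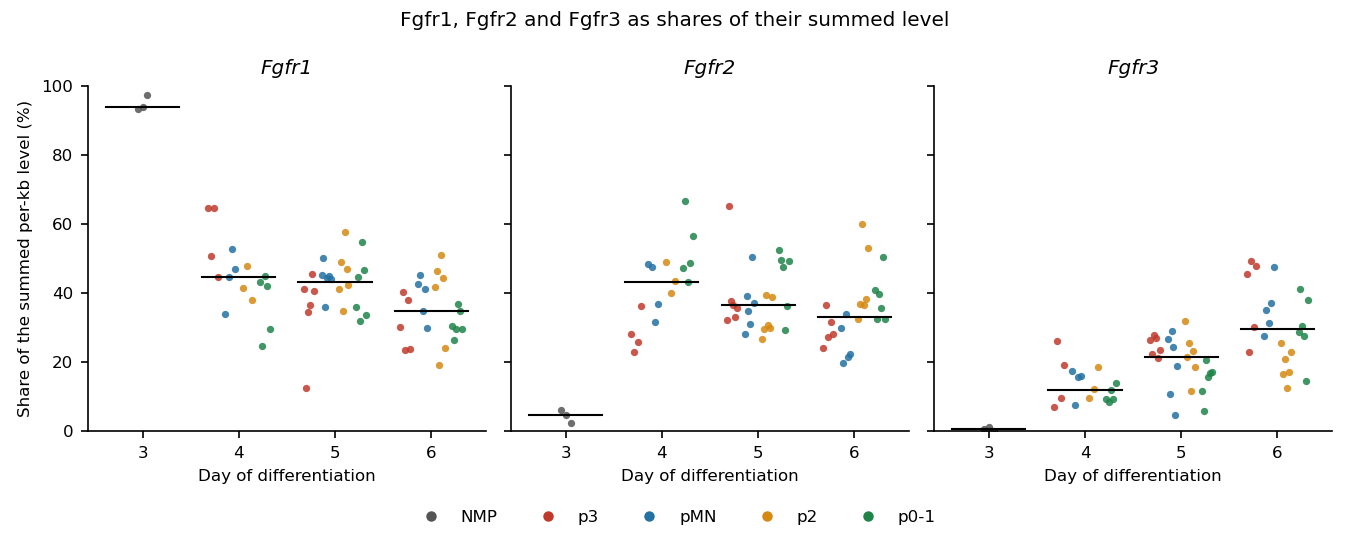
Share of Fgfr1, Fgfr2 and Fgfr3 in their summed level per kilobase of exon (%), by day of differentiation. Each point is a library coloured by cell type and black lines are medians over the libraries of a day, at 94.0% for Fgfr1 on day 3 and at 34.8%, 33.2% and 29.5% for Fgfr1, Fgfr2 and Fgfr3 on day 6.

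Promoters are shown for those examined genes whose day 3 and day 4 libraries did not overlap. These were Fgfr2 and Fgfr3, which were higher on day 4, and the inhibitor Dusp6, which was lower. The day 3 and day 4 libraries of Fgf8, Fgf17, Spry4 and Etv4 did not overlap either, but their windows were not examined. The sequences are the 250 bases before a transcript start, taken from RefSeq on GRCm38.p6, whose starts match those of the deposited mm10 annotation. Windows of 4 of the 10 genes were examined (Fgfr2, Fgfr3, Dusp6 and Spry2), and those of the other genes were not. Capitals mark a match, on either strand, to any of 6 motifs searched: CGGAAG (ETS factors), AGGTCA (nuclear receptors), GACCACCCA (GLI factors), ATCAAAG (TCF/LEF factors), ACAATG (SOX factors) and CAGCTG (an E-box).
Fgfr2, chr7:130266809-130267058, minus strand: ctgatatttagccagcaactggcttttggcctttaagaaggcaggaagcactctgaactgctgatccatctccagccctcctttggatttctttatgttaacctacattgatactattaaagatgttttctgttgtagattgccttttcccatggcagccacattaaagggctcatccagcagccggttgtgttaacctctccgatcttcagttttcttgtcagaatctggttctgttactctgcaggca
Fgfr3, chr5:33721474-33721723, plus strand: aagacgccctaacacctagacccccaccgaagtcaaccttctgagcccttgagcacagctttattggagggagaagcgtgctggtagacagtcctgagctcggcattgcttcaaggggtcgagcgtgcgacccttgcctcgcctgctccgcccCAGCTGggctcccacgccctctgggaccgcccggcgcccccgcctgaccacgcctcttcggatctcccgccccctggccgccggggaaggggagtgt
Dusp6, chr10:99262981-99263230, plus strand: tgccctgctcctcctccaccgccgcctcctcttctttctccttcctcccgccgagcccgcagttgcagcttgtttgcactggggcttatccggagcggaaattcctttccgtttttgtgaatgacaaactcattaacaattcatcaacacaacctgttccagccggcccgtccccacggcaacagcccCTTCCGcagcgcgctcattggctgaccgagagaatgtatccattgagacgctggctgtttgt

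The Dusp6 window held 1 match to the ETS motif, on the minus strand 62 bases before the start, and 13.6% of the 32851 promoter windows of the table held this motif. The Fgfr3 window held 1 E-box 97 bases before the start, and 13.0% of windows held one. The Fgfr2 window held none of the 6 motifs, nor did the second Fgfr3 window or that of Spry2. Of all windows, 14.0% held the nuclear receptor motif, 0.23% the GLI motif, 3.21% the TCF/LEF motif and 10.7% the SOX motif. The windows differed in base composition, with a GC content of 44.0% for Fgfr2, 66.8% for Fgfr3 and 56.4% for Dusp6 against a median of 52.4% over all windows. These matches are descriptions of the letters and not of factor binding.

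Among the feedback genes, Spry4 (chr18:38586247-38601347, minus strand), a Sprouty inhibitor of the Ras-MAPK cascade, had 640.2, 843 and 916 normalised reads in the NMPs. On day 4 it was at 0 in 9 of 16 libraries and reached 182 in the highest, p0-1 at 10 nM, so the groups did not overlap. It fell by 7.05 on the log2 scale (SE 1.57, limma adjusted p = 0.00183). This call was lost without any of the 3 NMP replicates (adjusted p = 0.0186, 0.0164 and 0.0197 without replicates 1, 2 and 3), with edgeR (adjusted p = 0.0725), with DESeq2 (adjusted p = 0.257) and in a fit of the compared groups alone (adjusted p = 0.0234), while the difference itself stayed between -10.11 and -5.13 under every setting tried. Its relative Spry2 (chr14:105891947-105896819, minus strand) had 613, 800.3 and 1241 in the NMPs and a median of 147 on day 4, with a range of 32.9 to 768. A single day 4 library, p0-1 at 10 nM at 768, reached the NMP range, and the log2 difference of -2.77 (SE 0.78) missed the threshold (limma adjusted p = 0.0198). Spry2 was called lower with edgeR (adjusted p = 0.00713), DESeq2 (adjusted p = 0.00124), array weights, a pseudocount of 10 and no filter on low values.

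Dusp6 (chr10:99263231-99267489, plus strand) had 893, 1081 and 1142 normalised reads in the NMPs and 11.7 to 845 on day 4, with a median of 304. The groups did not overlap, but day 4 libraries of the same group differed widely, as in pMN at 500 nM with 656 and 21.6. The log2 difference of -2.47 (SE 1.18) was not called (limma adjusted p = 0.259), except with array weights (adjusted p = 0.00711). Etv4 (chr11:101769748-101785310, minus strand), an ETS factor induced by FGF signalling, was the highest of the 10 genes per kilobase in the NMPs, at 666 ± 189 (SD, n = 3). It had 1045, 1806 and 1813 normalised reads there, and on day 4 it was at 0 in 4 of 16 libraries, with a median of 31.7 and a highest value of 230 in p0-1 at 0 nM. It fell by 6.77 on the log2 scale (SE 1.32, limma adjusted p = 0.000309), and edgeR alone of the 29 alternatives did not call it (adjusted p = 0.0155).

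The wider FGF pathway was examined in a list of 61 other genes, of which 45 were tested. Between day 3 and day 4, 3 of the 45 rose and 1 fell, against 1.32% and 2.18% of all genes tested. The ligand Fgf3 had no read in the 3 NMP libraries and a mean of 231 ± 236 on day 4 (SD, n = 16), at least 69.8-fold above the level of 3 reads (limma adjusted p = 0.00963). The receptor Fgfr4 rose from 6.4 ± 2.9 to 414 ± 153 (limma adjusted p = 2.27e-08), with no overlap between days, and the ERK phosphatase Dusp5 rose from 4.9 ± 6.6 to 117 ± 58.6 (limma adjusted p = 0.00859). Il17rd, a membrane inhibitor of FGF signalling also called Sef, fell from 1064 ± 127 to 37.8 ± 52.9 (limma adjusted p = 0.00806). The Fgfr4 call was kept under all 30 alternatives, while those of Fgf3, Dusp5 and Il17rd were kept under 15 of 29, 16 of 29 and 16 of 30. These 3 calls were lost with edgeR (adjusted p = 1, 0.0674 and 0.0285 in this order). Leaving out single libraries also ended them, with adjusted p-values of up to 0.0675 for Fgf3, 0.156 for Dusp5 and 0.0561 for Il17rd, each without an NMP library. The 15 tested feedback and target genes of this list had a median log2 difference of -2.29, and the 22 Ras-MAPK transducers had a median of -0.10 with 0 called.

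The second question was how the genes changed among neural progenitors over time. From day 4 to day 5, 2 of the 10 genes were called, against 4.3% of all genes tested, and both were lower, against 1.2%. Fgf15 fell from a median of 1131 (16.4 to 3860, n = 16) to a median of 269 (0 to 701, n = 24), with 6 libraries at 0 on day 5 (log2 difference -3.95, SE 1.02, limma adjusted p = 0.00549). The call was lost with edgeR (adjusted p = 0.0181), with DESeq2 (adjusted p = 0.0154), without the 4 libraries of few detected genes (adjusted p = 0.0186) and without any of 3 day 4 libraries (p0-1 at 0 nM, p2 at 100 nM and p3 at 100 nM, replicate 3 of each, adjusted p = 0.0134, 0.0106 and 0.0139). Etv4 fell from a median of 31.7 to 0, with 16 of 24 libraries at 0 on day 5 (log2 difference -2.80, SE 0.70, limma adjusted p = 0.00429), and the call was lost with edgeR (adjusted p = 1), with quantile normalisation (adjusted p = 0.0159) and without any of 4 day 4 libraries (p0-1 at 0 nM, p2 at 100 nM and pMN at 100 nM, replicate 2 of each, and p2 at 10 nM, adjusted p = 0.0110, 0.0106, 0.0104 and 0.0108). In the wider list Fgf3 (log2 difference -4.20, limma adjusted p = 0.000451) and Etv5, the paralogue of Etv4 (log2 difference -5.11, limma adjusted p = 2.4e-05), fell over the same interval. The Etv5 call was kept under all 51 alternatives, and that of Fgf3 under all but edgeR (adjusted p = 1) and DESeq2 (adjusted p = 0.0675). The median of Etv5 was 823 normalised reads in the NMPs and 199, 0.4 and 1.1 on the following days.

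From day 5 to day 6 limma called 0 of the 10 genes, against 0.852% of all genes tested. The unadjusted p was under 0.05 for 1 of them, edgeR also called 0, and DESeq2 called 1, Fgf15. Over the longer interval from day 4 to day 6, a comparison added after the data were seen, Fgf15 fell and Fgfr3 rose, 2 of 10 genes against 8.87% of all genes tested (5.83% higher and 3.04% lower). Fgf15 fell by 5.46 on the log2 scale (SE 1.04, limma adjusted p = 7.18e-05), with a median of 81.0 and 8 of 22 libraries at 0 on day 6, and all 49 alternative settings kept this call. Fgfr3 rose by 1.19 (SE 0.27, limma adjusted p = 0.000827), from a median of 695 to 1471 (314 to 3682 on day 6). Without the day 4 p3 library of 9718 genes its difference was 0.96, short of 2-fold. Fgfr1 and Fgfr2 had log2 differences of -0.54 and -0.45 from day 4 to day 6 and were not called. In the wider list 4 genes fell over this interval, namely Fgf3, Etv5, the FLRT family member Flrt3 and Fgfr4, the last of which was named after its values were seen (log2 differences -4.38, -4.37, -2.27 and -1.34). Nf1, which encodes a GTPase-activating protein of Ras, rose by 1.22. The Fgfr4 and Flrt3 calls were lost without any of 22 and 12 single libraries, with adjusted p-values of up to 0.0239 and 0.0174, and the Nf1 difference was 0.91, short of 2-fold, without the day 4 p3 library of 9718 genes. Summed neuronal markers had a median of 866 normalised reads on day 4 and 3831 on day 6, and summed radial glial markers had medians of 1099 and 2203. These marker sums were thus higher on the day on which Fgfr3 was higher, and their part in the result was not tested. In the NMPs the medians were 1264 and 1286, above those of day 4, so the sums do not reflect neurons or radial glia alone. In bulk samples, fewer cells of a type and less RNA per cell cannot be told apart.

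**Figure D3:**
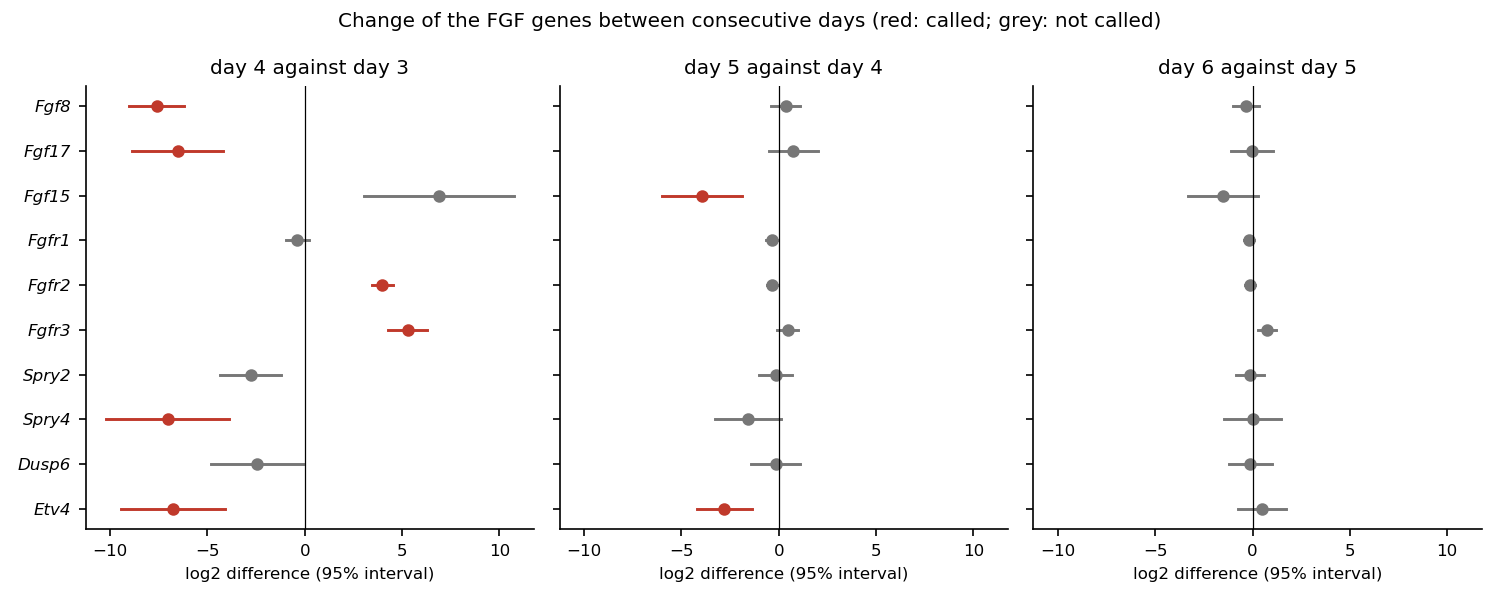
Log2 difference of each gene between consecutive days, with its 95% interval from the limma fit; positive values are higher on the later day. Red marks genes called at an adjusted p under 0.01 and over 2-fold: 6 from day 3 to day 4, 2 from day 4 to day 5 and 0 from day 5 to day 6.

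The third question was whether the progenitor types differed. Averaged over days 5 and 6, limma called 0 of the 10 genes in each of the 6 comparisons between p3, pMN, p2 and p0-1. Neither p3 nor pMN shared a SAG concentration with p0-1, so type and concentration cannot be told apart in those comparisons. Of all genes tested, 0.695% were called between p3 and pMN, 1.27% between p3 and p2, 1.43% between p3 and p0-1, 0.107% when pMN was compared with p2, 0.96% when it was compared with p0-1, and 0.322% when p2 was compared with p0-1. At an unadjusted p under 0.05 the counts in the same order were 3, 4, 1, 0, 1 and 1 of the 10 genes. edgeR called 0 in all 6, and DESeq2 called 1, 3, 1, 0, 0 and 1.

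Fgf15 came closest among the ligands. On days 5 and 6 it was at 0 in 7 of 11 p3 libraries, 1 of 11 pMN, 2 of 12 p2 and 4 of 12 p0-1 libraries. The medians were 0 in p3, 459 in pMN, 366 in p2 and 77.7 in p0-1, and the highest values lay between 563 and 701 in all 4 types, so the ranges overlapped. In order of the means, pMN (388 ± 262, SD, n = 11) and p2 (313 ± 212, n = 12) did not differ beyond their spread (log2 difference 0.28, 95% interval -2.26 to 2.82), nor did p2 and p0-1 (159 ± 210, n = 12; adjusted p = 0.721 with limma). The difference between p0-1 and p3 (102 ± 195, n = 11) was not called by limma (adjusted p = 0.413). The difference of p3 from pMN was -4.54 (SE 1.30, limma adjusted p = 0.0612) and from p2 -4.26 (SE 1.26, limma adjusted p = 0.041). DESeq2 called p3 lower than pMN, p2 and p0-1 (adjusted p = 7e-09, 1.31e-09 and 1.11e-06). The difference from p2 was also called when the third library of the p3 group at 100 nM on day 5 was left out (adjusted p = 0.00991) and with the replicate number as a block (adjusted p = 0.0095), and it was not called without the 4 libraries of few detected genes (adjusted p = 0.135).

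Within groups Fgf15 varied between high values and none. In p2 at 10 nM on day 5 the libraries had 615, 0 and 473 normalised reads, and in p3 at 100 nM on day 5 they had 0, 0 and 563. In contrast, pMN at 100 nM on day 5 had 604, 584 and 604. On day 6 all 3 libraries of p3 at 100 nM were at 0, and p3 at 500 nM had 0 and 40.0.

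**Figure D4:**
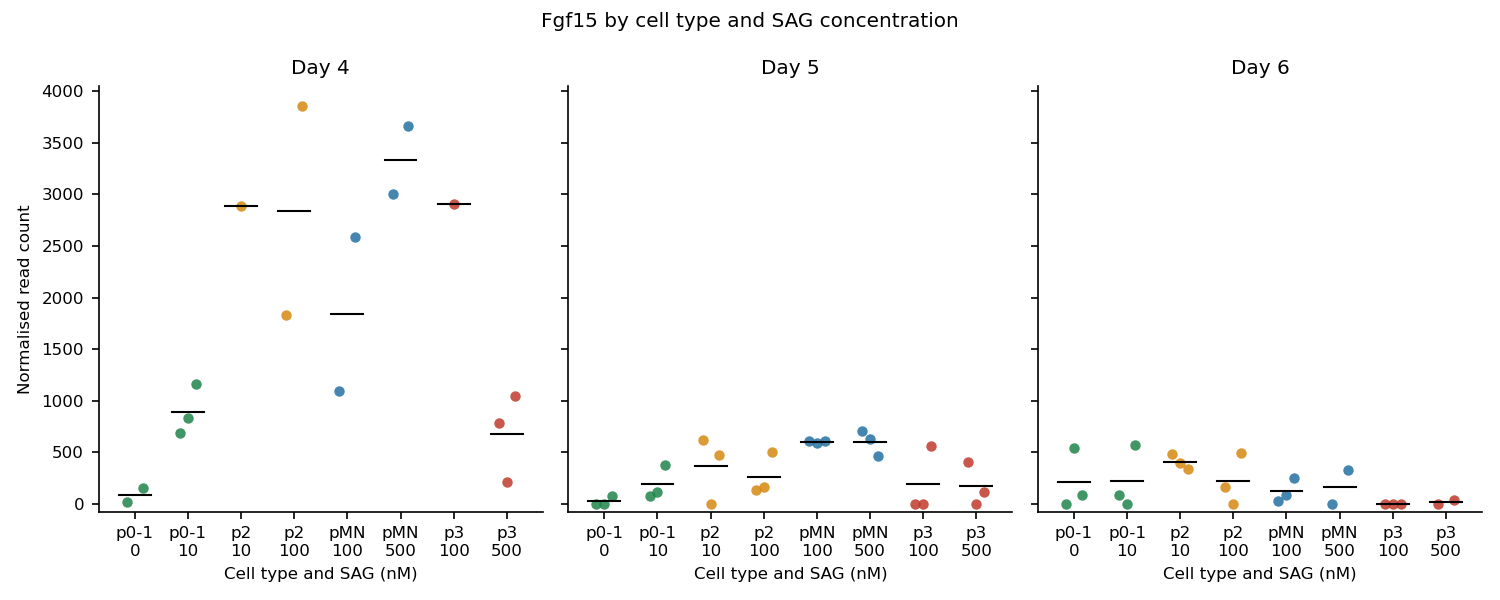
Normalised read count of Fgf15 by cell type and SAG concentration (nM) on days 4, 5 and 6. Points are libraries and black lines are group means. On day 4 the p0-1 libraries at 0 nM, at 16.4 and 152, lie below all other groups, and on day 6 the p3 libraries lie between 0 and 40.0.

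Fgfr3 had its highest mean in p3 on days 5 and 6, at 1881 ± 927 (SD, n = 11), followed by pMN at 1178 ± 625 (n = 11), p0-1 at 1005 ± 530 (n = 12) and p2 at 844 ± 371 (n = 12). The ranges overlapped, from 799.7 to 3682 in p3 and from 314 to 1524 in p2. On day 5 p3 lay at 799.7 to 1875 and p2 at 580 to 1524. On day 6 they lay at 1488 to 3682 and at 314 to 1491 in the same order. The log2 difference of p3 from p2 was 1.17 (SE 0.33, limma adjusted p = 0.0313), from p0-1 1.02 (SE 0.33, limma adjusted p = 0.0706) and from pMN 0.78 (SE 0.34, limma adjusted p = 0.34). Without the 4 libraries of few detected genes the difference from p2 was 1.45 and was called (adjusted p = 0.00668). It lay between 0.55 and 1.78 over the alternatives, which included each day alone. Summed floor plate markers had a median of 5918 in p3 (3077 to 14699) and 1509 in p2 (730.5 to 2922) over the same days, and their part in the Fgfr3 levels was not tested. Fgfr2 was likewise highest in p3, at 2352 ± 673 (SD, n = 11), and lowest in pMN, at 1516 ± 357 (n = 11), with a log2 difference of 0.64 (SE 0.18, limma adjusted p = 0.0597). Fgfr1 means lay between 1773 in p0-1 and 2110.4 in p3, and the differences between types were within 0.23 on the log2 scale.

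Of the inhibitors, Dusp6 had medians of 454 in p3, 263 in p0-1, 228 in pMN and 46.9 in p2 on days 5 and 6. In p2 it ranged from 0 to 585 and in p3 from 13.9 to 1217. The log2 difference of p3 from p2 was 2.45 (SE 0.78, limma adjusted p = 0.0604) and was called by DESeq2 (adjusted p = 0.00269) and with array weights (adjusted p = 0.00493), and that of p2 from p0-1 was -2.17 (SE 0.75, limma adjusted p = 0.299). Over the alternatives, each day alone among them, the difference of p3 from p2 lay between 1.28 and 3.61. Spry2 was detected in all 62 libraries of days 4 to 6, and its means over days 5 and 6 lay between 102 in p3 and 149 in pMN. Spry4 and Etv4 were at 0 in 38 and 32 of the 46 libraries of days 5 and 6. In the wider list the adaptor Shc1 rose in p3 against pMN (588 ± 329 against 212 ± 142, log2 difference 2.27, limma adjusted p = 0.00972), a call kept under 5 of 35 alternatives and lost without any of 19 single libraries (adjusted p of up to 0.149, without pMN at 500 nM on day 6, replicate 3). Flrt2, a membrane protein of the FLRT family, fell in p3 against p2 (log2 difference -5.19, limma adjusted p = 0.00129) and against p0-1 (log2 difference -4.34, limma adjusted p = 0.007), being at 0 in 10 of 11 p3 libraries. The former call was kept under 34 of 36 alternatives, and the latter under 10 of 35, with adjusted p-values of up to 0.0224 without a single library.

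On day 4 the progenitor types had only just been induced, and Fgfr2 separated the p3 libraries from the p0-1 libraries. The former came from 100 and 500 nM SAG and the latter from 0 and 10 nM. Cell type and SAG concentration therefore cannot be told apart in this comparison. The 4 p3 libraries had 885 at 100 nM and 1308, 1646 and 1806 at 500 nM, and the 5 p0-1 libraries had 4031 and 5159 at 0 nM and 2587, 4318 and 3828 at 10 nM. The ranges did not overlap, and pMN (1835 to 4036, n = 4) and p2 (2915 to 3090, n = 3) lay between them in the mean. Fgfr2 was lower in p3 by a log2 difference of -1.76 (SE 0.31, limma adjusted p = 3.59e-05), the only one of the 10 genes called, against 6.02% of all genes tested and 5.76% called lower. This background depended on the p3 library of 9718 genes: 840 genes were called with it and 14 without it. Without it the log2 difference of Fgfr2 was -1.34 and the adjusted p 0.0351, and without all 4 libraries of few detected genes the adjusted p was 0.00825. Etv4 was also lower in all p3 libraries (0, 0, 0 and 20.4) than in all p0-1 libraries (42.9 to 230), with a log2 difference of -5.59 (SE 1.53) that narrowly missed the threshold (limma adjusted p = 0.0103) and passed it with DESeq2, TMM scaling, array weights and a pseudocount of 10, while without the 4 libraries of few detected genes the adjusted p was 0.262. The median log2 difference of all genes tested was -0.37 in this comparison and 0.02 with quantile normalisation, under which Fgfr2 was still called. In the wider list Sos1, a Ras guanine nucleotide exchange factor, and Nf1 were called lower in p3 against p0-1 on day 4 (limma adjusted p = 0.00275 and 0.00751), and Sos1 also against pMN (limma adjusted p = 0.00162). All 3 calls rested on the p3 library of 9718 genes, in which Sos1 was at 1.5 and Nf1 at 83.4, and without it the log2 differences were -0.04, -0.50 and -0.43, each with an adjusted p of 1.

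The remaining day 4 comparisons were added after the data were seen. Between p3 and pMN limma called 0 of the 10 genes, against 4.7% of all genes tested, with 656 genes called and 6 without the p3 library of 9718 genes. A single one of the 10, Fgfr2, had an unadjusted p under 0.05 (log2 difference -0.97, SE 0.32, limma adjusted p = 0.0504), and its p3 and pMN libraries did not overlap. edgeR called 0 and DESeq2 called Fgfr2. The gap was narrow at 500 nM SAG, where the highest p3 library had 1806 and the lowest pMN library 1835. The p3 library of 9718 genes had 885. Without the 4 libraries of few detected genes the log2 difference of Fgfr2 was -0.56 and was not called (limma adjusted p = 0.689). Between pMN and p0-1 limma called 0 against 0.1% of all genes, with 2 at an unadjusted p under 0.05, and between p2 and p0-1 it called 0 against 0.0286%, with 0 at an unadjusted p under 0.05. Both edgeR and DESeq2 called 0 in these 2 comparisons.

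On days 5 and 6 the Fgfr2 libraries of p3 and p0-1 overlapped, with means of 2352 ± 673 and 2103 ± 485 (SD over 11 and 12 libraries; log2 difference 0.13, 95% interval -0.22 to 0.49, limma adjusted p = 0.785). The change from day 4 to day 6 differed between p3 and p0-1 by 2.04 on the log2 scale (SE 0.40, limma adjusted p = 0.000421), the only such difference called among the 10 genes, against 3.03% of all genes tested and 2.99% in this direction. It was not called without the day 4 p3 library of 9718 genes (log2 difference 1.63, adjusted p = 0.137). As p3 and p0-1 shared no SAG concentration, type and concentration cannot be told apart here. The change from day 5 to day 6 differed between p3 and p0-1 for 0 of the 10 genes with limma, 1 at an unadjusted p under 0.05, 0 with edgeR and 2 with DESeq2, against 0% of all genes tested.

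**Figure D5:**
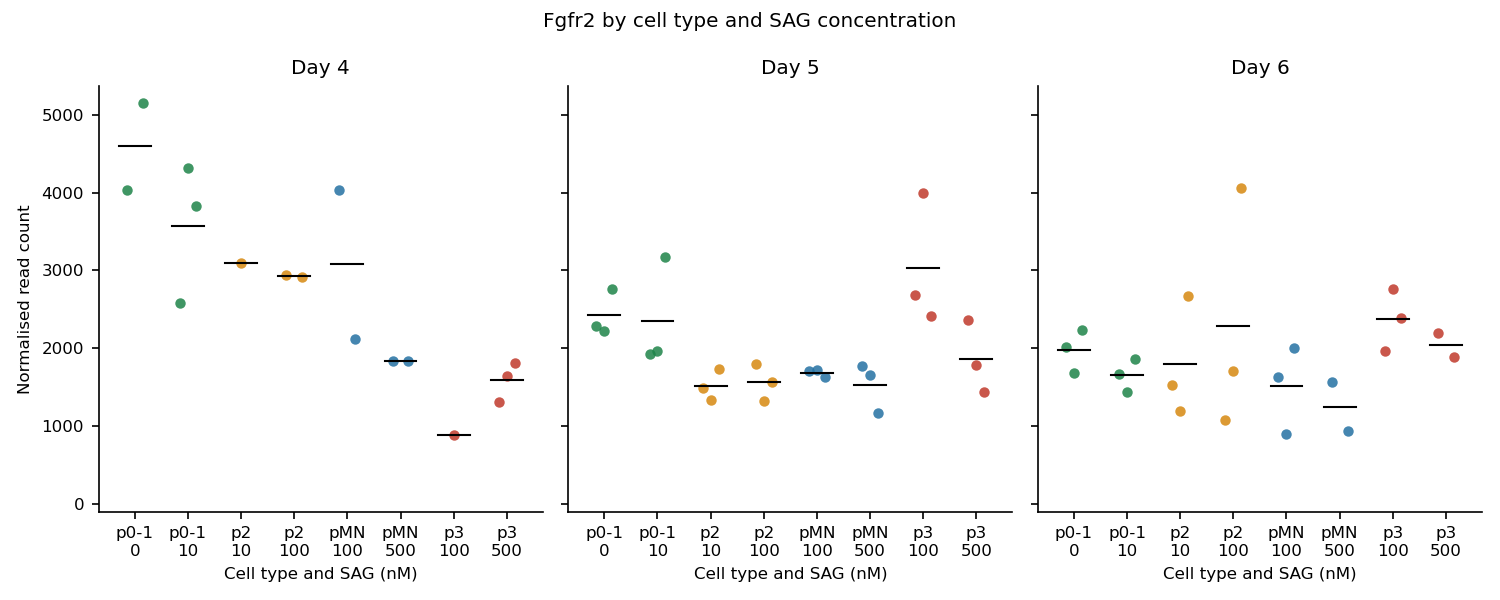
Normalised read count of Fgfr2 by cell type and SAG concentration (nM) on days 4, 5 and 6. Points are libraries and black lines are group means. The p3 libraries lie at 885 to 1806 on day 4, below the p0-1 libraries at 2587 to 5159, and overlap with them on days 5 and 6.

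The last question was whether the SAG concentration mattered within a progenitor type. Over days 5 and 6 limma called 0 of the 10 genes in p0-1 at 10 against 0 nM, p2 at 100 against 10 nM, pMN at 500 against 100 nM and p3 at 500 against 100 nM, against 0.0143%, 0.0358%, 0% and 0.0286% of all genes tested. None of the 10 genes had an unadjusted p under 0.05 in any of the 4 comparisons. edgeR called 0 in all 4, and DESeq2 called 1, 0, 0 and 1. The intervals were wide for the genes that varied most: for Fgf15 in p0-1 the log2 difference was 2.58 with a 95% interval of -0.91 to 6.06. For Fgfr1, Fgfr2 and Fgfr3 the log2 differences lay between -0.45 and 0.30 in the 4 comparisons.

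On day 4 Fgf15 was lowest where no SAG had been given. The p0-1 libraries at 0 nM had 16.4 and 152 normalised reads and those at 10 nM had 687, 827 and 1166, so the concentrations did not overlap. In the same order of increasing SAG, p2 at 10 nM had 2892, p2 at 100 nM 1826 and 3860, pMN at 100 nM 1096 and 2591, p3 at 100 nM 2911, pMN at 500 nM 3008 and 3665 and p3 at 500 nM 786, 209 and 1044. The log2 difference of 4.08 (SE 2.74) between 10 and 0 nM in p0-1 was not called, with an adjusted p of 1 in limma, where 0.00716% of all genes tested were called. At 500 nM all 3 p3 libraries lay below both pMN libraries, and that difference of -2.58 (SE 2.74) was not called either (limma adjusted p = 1), where 0% of all genes tested were called. Both comparisons were added after the data were seen.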

How the data were processed

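Each sample was a bulk RNA-seq library of fixed cells, sorted after intracellular staining on days 4 to 6. Per the study's methods, libraries were made with SMART-Seq HT and Nextera XT, reads were aligned with STAR to mm10 with added ERCC spike-in sequences and counted per gene with featureCounts, with duplicates ignored, within the nf-core rnaseq pipeline. The deposited values are a normalised signal, read counts divided by 1 size factor per library by the authors. All 834400 values above 0 were whole multiples (tolerance 0.01 read) of what 1 read was worth in their library, 0.717 to 1.36, and whole reads were recovered from them. No pair of libraries held identical values. Libraries were grouped by the labels.

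Tests used limma 3.58.1 (R 4.3.3) with trend on log2(value + 1), all 65 libraries in 1 fit of 25 group means with 40 residual degrees of freedom, on the 13964 genes whose mean was at least 10. Groups were averaged with equal weight. For genes near 0 the added 1 makes fold changes too small. Calls needed a Benjamini-Hochberg adjusted p under 0.01 over all genes tested and more than 2-fold. These 2 thresholds are those of the study's accessibility comparisons, which also required a mean of over 100 normalised counts. Here a mean of at least 100 was an alternative. Alternatives were edgeR 4.0.16 and DESeq2 1.42.0 on the recovered counts, pseudocount 10, other filters and scalings, array weights, a replicate block, the compared groups alone, matched SAG, single days and leaving out each library. Of the wider pathway list, the rule named at most 3 called genes per direction, those of largest change that averaged 100 normalised reads or more in a compared group, and Fgfr4 from day 4 to day 6 was named beyond it. Levels per kilobase used the union of exons. P-values rest on the spread between libraries within groups, all of 1 cell line, with every library taken as independent. For its accessibility samples the study sorted several cell types from each SAG condition. Libraries of different groups may therefore share a differentiation, which the p-values do not allow for. Floors of 3 reads cover counting error only. The fit was tested on simulated counts. The genes and lists were chosen with earlier results of these data known.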

Additional observations from a re-analysis of the deposited data

Results flagged for a closer look

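The change of Fgfr2 from day 4 to day 6 differed between p3 and p0-1 by 2.04 on the log2 scale (SE 0.40, adjusted p = 0.000421 in the limma fit across all genes). These 2 cell types shared no SAG concentration, so type and concentration cannot be told apart. The 4 p3 libraries of day 4 had 885 to 1806 normalised reads and the 5 of day 6 had 1888 to 2767, while p0-1 moved from 2587 to 5159 on day 4 to 1442 to 2238 on day 6. Without the day 4 p3 library of 9718 detected genes the difference was 1.63 and was not called (adjusted p = 0.137). No group held more than 3 libraries, so single libraries were not tested against their group.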

How the results depend on the processing

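A gene without a read in a library could have been present at up to 3 reads, counting error only. Fgf15, Spry4, Dusp6 and Etv4 varied widely between replicates and their intervals were wide; the cause was not tested. The direction of every called difference was the same under all alternatives run. The number of the 10 genes called from day 3 to day 4 was 6, became 2 with a mean of at least 100 (which left out Fgf8, Fgf17, Spry4 and Etv4, so fewer genes were tested), 4 with edgeR or DESeq2, 8 with a pseudocount of 10 and 9 with array weights, and ranged from 5 to 6 when libraries were left out in turn. From day 4 to day 5 it was 2, and became 0 with edgeR and 1 with DESeq2, quantile normalisation, a mean of at least 100 or without the 4 libraries of few detected genes, with a range of 1 to 2 when libraries were left out. DESeq2 called 1 gene in place of 0 from day 5 to day 6, for p3 against pMN, p3 against p0-1 and p2 against p0-1 over days 5 and 6, for SAG in p0-1 and in p3, and for p3 against pMN on day 4, and 2 in place of 0 for the change from day 5 to day 6 between p3 and p0-1; the cause was not tested. For p3 against p2 the count was 0, became 3 with DESeq2 and 1 with the replicate block, with array weights or without the 4 libraries, and ranged from 0 to 1 when libraries were left out. For p3 against p0-1 on day 4 it was 1, became 2 with a pseudocount of 10, DESeq2, TMM scaling or array weights, and ranged from 0 to 2. For the change from day 4 to day 6 between p3 and p0-1 it was 1, became 3 with DESeq2, 2 with array weights and 0 without the 4 libraries, and ranged from 0 to 2. From day 4 to day 6 it was 2 and ranged from 2 to 3. In the other comparisons the range was 0 to 0. Etv4 in p0-1 at 10 against 0 nM over days 5 and 6, with a log2 difference of -0.36 that was not called, turned to 0.10 with a pseudocount of 10, and ranged from -1.49 to 0.47 when libraries were left out (0.08, 0.21, 0.21 and 0.47 in those that turned it). Over all genes, calls for p3 against p0-1 on day 4 numbered 840, and 3135 with DESeq2, 328 with quantile normalisation and 14 without the p3 library at 100 nM.

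Replicate numbers are shared across groups. Same-numbered libraries of a day had a median correlation of 0.03 between their deviations from the group means, against -0.02 for other numbers of a day. Of 186 same-numbered pairs 1.61% exceeded 0.1, and 53 of 63 libraries were closest to their own number. Libraries of the same number may thus share a source of spread that the main fit does not allow for. This is read from the data and not from the design. No source used here says that equal numbers mark a shared dish, and the numbers were not taken to pair the libraries. With the replicate block Fgf15 was called for p3 against p2 and Etv4 from day 4 to day 6, the calls of Fgfr4 and Flrt3 from day 4 to day 6 were lost (adjusted p = 0.0251 and 0.0183), and the other counts of the 10 genes were as without it.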

Other observations

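The genes whose pattern was most like that of each of the 10 genes were taken as those with the highest Pearson r over the 25 group means of log2(value + 1), among 10173 genes with a mean of at least 100 normalised reads. The groups share libraries' depth and day of collection, and r is given as a description. For Fgf8 the nearest gene was T, which marks caudal axial progenitors (r = 0.86), and r was -0.02 over the 24 groups without day 3. For Etv4 the nearest was the caudal ligand Wnt8a (r = 0.86, and 0.77 without day 3), and for Spry4 it was Notum, a secreted inhibitor of Wnt signalling (r = 0.85, and 0.67 without day 3). Fgfr3 was nearest to the neural adhesion gene Ncam1 (r = 0.88, and 0.70 without day 3), and Fgfr2 to Igsf11 (r = 0.83, and 0.56 without day 3). The neural progenitor gene Sox1 stood at rank 3 for Fgfr2 (r = 0.82, and 0.22 without day 3). The nearest genes were Nudcd2 for Fgf15 (r = 0.79, and 0.82 without day 3), Hexa for Fgfr1 (r = 0.83, and 0.81) and Acsl5 for Dusp6 (r = 0.83, and 0.81). The search was not repeated without day 3, and Tomm70a, second for Fgf15 with r = 0.77, had r = 0.85 there. Ptk7 was nearest to Fgf17 (r = 0.73, and 0.07 without day 3) and Sema6a to Spry2 (r = 0.75, and 0.61 without day 3).

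Il17rd, which was at 1064 ± 127 normalised reads in the NMPs (SD, n = 3) and had a median of 4.3 on day 4 and 0 on day 5, had a median of 126 on day 6, where it was at 0 in 3 of 22 libraries. Flrt3 fell from 878 ± 404 on day 4 to 349 ± 347 on day 6 (limma adjusted p = 0.00708), and the Ras inhibitor Nf1 rose from 491 ± 236 to 905 ± 278 (limma adjusted p = 2.85e-05).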
